A study of Homo sapiens with 6 samples.

Results

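Genes whose span in the genome exceeds 500 kb were examined in U-2 OS, a line of human osteosarcoma cells, after ionizing radiation (IR). The span of a gene is the distance from its first to its last annotated base (end minus start plus 1), introns included, in the GENCODE annotation of GRCh38. By this rule, which uses no measured value, 309 of the 19011 protein-coding genes on autosomes (and of 21447 genes in all) were selected. The study sequenced RNA of unsynchronized cells of this single cell line in 2 groups of 3 libraries, left untreated or collected 24 h after 4 Gy of IR. All 6 libraries came from cells in the same medium with serum and antibiotics and from RNA extracted with TRIzol, and no other agent or genetic change is named for either group. The study calls the samples of a group independent but does not say for these libraries whether they were separate cultures, so that P values measure the spread between these libraries, which may in part be technical. By the labels the libraries hold poly(A) RNA and come from an mRNA kit, whereas by the methods the kit was one for total RNA. The estimated counts totalled 18573309 to 22953834 in 5 libraries and 45308792 in IR replicate 3, whose values therefore carry the smallest counting error. IR replicate 3 also stood apart from the other IR libraries, with a chi-square of 29.1 and 32.2 per gene against IR replicates 1 and 2, where those gave 5.92 against each other and untreated pairs 3.44 to 9.16. Its deposited table alone carries the mark rep, whose meaning is not stated.

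Almost all of the length of such genes is intron. RNA polymerase II needs many hours to cross them, so that their transcripts depend on elongation factors, on topoisomerases that release the twist ahead of and behind the polymerase, and on a template free of lesions that stop it. Many of them encode adhesion molecules, guidance receptors, ion channels and scaffolds of neurons, and several lie in common fragile sites, regions that break when replication is slowed. A long gene can also be read from a start site far inside it, which gives a short transcript of a long gene.

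The 309 genes lay on 21 of the 22 autosomes and spanned from 500909 to 2473539 bases, with a median of 725759 and with 67 genes over 1 Mb. After the filter on low counts 247 of them remained, and the other 62 had a mean of at most 14.3 counts per library, 4 of them with no count in any library. Those 62 genes were not tested. Levels were modest, with 193 of the 309 genes above 1 TPM (a level per transcript length, scaled to the library) and 74 above 10 TPM in untreated cells. In the tested genes the median level was 3.50 TPM. The highest level in untreated cells was that of SYNE1, a nuclear envelope protein that tethers the nucleus to actin, with 199.8, 220.0 and 213 TPM in replicates 1, 2 and 3, and 207, 174 and 163 TPM after IR. PARD3, a scaffold of cell polarity, followed with 161, 154 and 185 TPM untreated and 179.8, 173 and 153 TPM after IR. Their ranges did not overlap in untreated cells. NTM, an adhesion molecule of the immunoglobulin family, measured 83.7, 99.6 and 85.7 TPM untreated and 106, 95.5 and 76.7 TPM after IR, and CAMTA1, a transcription activator, 66.6, 72.8 and 86.3 TPM untreated and 74.9, 66.3 and 67.1 TPM after IR. PALM2AKAP2, an anchor of protein kinase A, came next with 55.2, 61.9 and 51.1 TPM untreated and 54.2, 40 and 37.5 TPM after IR. Neighbours in this order overlapped in untreated cells for NTM and CAMTA1 and not for the other pairs, and none of the 5 genes was called changed, with log2 fold changes from -0.17 to 0.23 and adjusted P values of 0.0903 or more in the quasi-likelihood test of edgeR. Other settings called 3 of them. NTM was higher with the GC trend removed (log2 fold change 0.29, adjusted P = 0.0246 in edgeR) and without IR replicate 3 (adjusted P = 0.00316, edgeR), and SYNE1 and PALM2AKAP2 were lower without IR replicate 1 (adjusted P = 0.0341 and 0.0376, edgeR).

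The lineage markers SPARC, VIM and COL1A1 were high in all libraries (443 TPM or more), RUNX2 lay between 3.36 and 4.87 TPM, and COL1A2 and ALPL were low (at most 0.896 and 2.14 TPM). Of the markers of other cells, PTPRC (blood) reached at most 3.47 TPM and PECAM1 (endothelium) at most 0.399 TPM, and EPCAM (epithelium) lay between 14.5 and 15.9 TPM. The neuronal genes SNAP25, SYT1 and RBFOX3 lay between 0.574 and 4.58 TPM and STMN2 at or below 0.417 TPM, and none of these that were tested passed the threshold after IR. Of these, SYT1 and RBFOX3 are themselves genes over 500 kb. ALPL was higher after IR, with a log2 fold change of 1.09 (adjusted P = 0.00716, edgeR), and RUNX2 was lower, with a log2 fold change of -0.36 (adjusted P = 0.025, edgeR).

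A gene over 500 kb was often read, at least in part, as shorter transcripts. The transcript with the highest mean TPM of each gene, here called its leading transcript, itself spanned more than 500 kb in 97 of the 247 tested genes and less than 100 kb in 70. Its median span was 346 kb. The TPM values above are sums over all transcripts of a gene. Among the 5 genes of highest TPM, the leading transcript spanned 540991 bases in NTM. It spanned 25012 bases in SYNE1, 66534 in PARD3, 86559 in CAMTA1 and 123817 in PALM2AKAP2. Because TPM is a level per length, a short transcript can lead with few counts, and the median gene had 61.0% of its counts on transcripts over 500 kb. Summed over the tested genes, transcripts that span more than 500 kb held 61.8%, 61.4% and 60.2% of the estimated counts in the untreated replicates and 59.3%, 58.6% and 59.5% in the IR replicates, without overlap between the groups. This sum weighs each gene by its counts, and SYNE1, at a mean of 9839 counts, fell in this share after IR. Gene by gene, the median difference in the share was 0. The share was higher in all IR than in all untreated libraries in 27 genes and lower in 13. In 64 genes transcripts over 500 kb held less than 10% of the counts, and 23 genes had no such transcript among those quantified. The split among transcripts that share exons is an estimate of kallisto and is less certain than the sum over a gene.

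**Figure D1:**
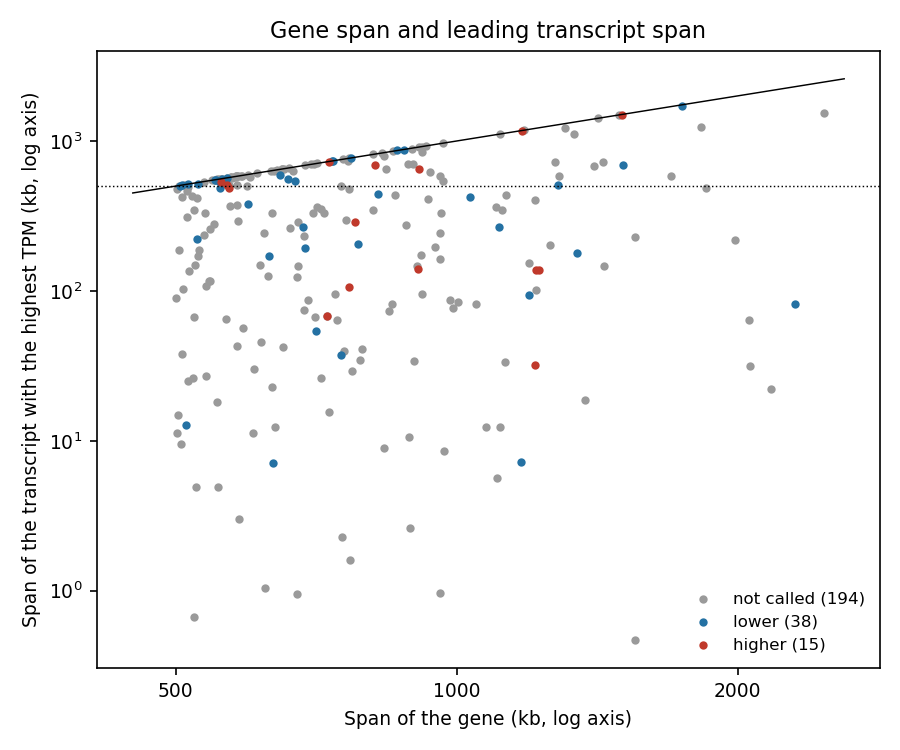
Span of the gene (x axis, kb, log scale) against span of its leading transcript (y axis, kb, log scale) for the 247 tested genes over 500 kb, coloured by their call after IR (15 higher, 38 lower, 194 not called at an adjusted P under 0.05). Points on the diagonal are read over their whole length. The 97 genes above the dotted line have a leading transcript over 500 kb, and the rest, called and uncalled alike, spread down to transcripts below 1 kb.

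The regions upstream of the genes with the largest called changes are shown because the start of the gene and the start of its leading transcript were often far apart. For the 3 highest and 3 lowest called genes with at least 100 counts per library on average, leaving out CSMD3, the 250 bases before the RefSeq start (GRCh38.p14) read as follows, 5′ to 3′ on the strand of the gene, with GC boxes (GGGCGG, or CCGCCC on the other strand) in capitals.
SUGCT, chr7:40134755-40135004, plus strand: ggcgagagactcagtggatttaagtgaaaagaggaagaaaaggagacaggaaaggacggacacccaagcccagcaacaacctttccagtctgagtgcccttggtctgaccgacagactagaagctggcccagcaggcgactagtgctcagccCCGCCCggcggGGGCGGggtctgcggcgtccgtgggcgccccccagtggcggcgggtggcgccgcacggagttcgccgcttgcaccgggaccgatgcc
TAFA2, chr12:62192774-62193023, minus strand: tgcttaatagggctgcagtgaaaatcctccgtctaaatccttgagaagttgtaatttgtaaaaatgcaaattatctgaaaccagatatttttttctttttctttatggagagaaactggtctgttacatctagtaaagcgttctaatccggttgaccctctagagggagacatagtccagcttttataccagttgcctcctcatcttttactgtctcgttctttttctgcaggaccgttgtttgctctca
RAD51B, chr14:67823291-67823540, plus strand: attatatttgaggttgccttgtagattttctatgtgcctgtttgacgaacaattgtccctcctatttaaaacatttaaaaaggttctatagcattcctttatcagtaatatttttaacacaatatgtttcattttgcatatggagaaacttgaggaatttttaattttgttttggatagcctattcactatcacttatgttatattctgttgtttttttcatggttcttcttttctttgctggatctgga
KSR2, chr12:117968991-117969240, minus strand: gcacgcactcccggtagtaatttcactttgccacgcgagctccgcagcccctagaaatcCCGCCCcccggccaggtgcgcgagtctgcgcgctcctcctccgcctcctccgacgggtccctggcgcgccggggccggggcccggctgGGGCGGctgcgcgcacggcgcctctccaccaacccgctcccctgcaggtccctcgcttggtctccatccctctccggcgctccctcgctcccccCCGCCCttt
CNTNAP2, chr7:146116551-146116800, plus strand: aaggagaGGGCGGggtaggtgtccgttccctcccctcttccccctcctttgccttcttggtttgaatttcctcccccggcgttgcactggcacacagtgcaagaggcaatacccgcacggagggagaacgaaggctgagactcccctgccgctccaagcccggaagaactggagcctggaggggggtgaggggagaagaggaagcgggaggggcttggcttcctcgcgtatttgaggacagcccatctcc
ADGRV1, chr5:90558547-90558796, plus strand: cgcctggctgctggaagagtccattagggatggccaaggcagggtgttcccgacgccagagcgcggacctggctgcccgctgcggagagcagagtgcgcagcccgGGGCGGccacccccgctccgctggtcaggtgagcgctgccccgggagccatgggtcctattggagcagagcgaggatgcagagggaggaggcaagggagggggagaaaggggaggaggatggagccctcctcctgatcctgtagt

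In KSR2 the leading transcript, KSR2-201, starts at this RefSeq position, below a promoter with 3 GC boxes and 74% GC. TAFA2-201 also starts at the RefSeq position, below a window of 38.8% GC without a GC box, and the RAD51B window has none either, at 29.6% GC. Only the first RefSeq start listed was kept per gene. In TAFA2, RAD51B, CNTNAP2 and ADGRV1 that start lies inside the annotated gene, downstream of its first base. The windows of these genes therefore do not describe the region before that first base. Except in KSR2 and TAFA2, the leading transcripts do not start at the RefSeq position. SUGCT-207, with 85.1% of the TPM of SUGCT, starts 658 kb downstream of the RefSeq start, and CNTNAP2-203, with 71.9% of the TPM of CNTNAP2, starts 2223 kb downstream, in the last part of the gene. ADGRV1-205 starts 288 kb downstream of the RefSeq start of ADGRV1, and RAD51B-213 starts 63.1 kb downstream of that of RAD51B. SUGCT-207, ADGRV1-205 and RAD51B-213 are annotated without a defined coding sequence. For the 2 genes with the most distant starts, the 250 bases before the leading transcript read as follows, also from GRCh38 and 5′ to 3′.
SUGCT-207, chr7:40792932-40793181, plus strand: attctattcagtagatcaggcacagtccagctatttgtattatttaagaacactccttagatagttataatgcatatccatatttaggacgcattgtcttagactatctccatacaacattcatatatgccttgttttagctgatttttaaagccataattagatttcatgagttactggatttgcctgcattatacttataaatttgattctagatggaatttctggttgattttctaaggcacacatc
CNTNAP2-203, chr7:148339211-148339460, plus strand: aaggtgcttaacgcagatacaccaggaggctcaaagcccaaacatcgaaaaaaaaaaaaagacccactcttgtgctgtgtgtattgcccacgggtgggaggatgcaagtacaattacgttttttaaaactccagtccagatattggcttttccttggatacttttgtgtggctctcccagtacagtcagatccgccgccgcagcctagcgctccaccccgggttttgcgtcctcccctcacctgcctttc

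Neither window holds a GC box, and their GC content is 32% and 50.4%, against 65.6% and 62.4% in the RefSeq promoters of the same genes. RefSeq promoters were at hand for 207 of the 247 tested genes. Of these genes, 81 had a leading transcript that starts within 1 kb of the RefSeq start, and 77 had one that starts more than 100 kb downstream. A GC box lay in the 250 bases upstream of the RefSeq start kept for 101 of the 207 genes (48.8%), against 65.8% of the 11248 promoters of tested genes and 42.3% of all 27305 promoters in the table. A half-site of p53, by its consensus on both strands, lay in 6.28% of the 207, against 4.54% and 5.53%. Among promoters of the genes called lower, 16 of 30 held a GC box, and among those called higher 5 of 11. A match is a run of letters and not a measured site.

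As a class, the very long genes had a median change slightly below that of all genes after IR, and few of them were called higher. Of the 247 tested genes, 15 were higher and 38 lower at an adjusted P under 0.05 (quasi-likelihood test of edgeR, adjusted over all 14322 genes tested), which is 21.5% called. Over all genes tested, 30.1% were called, 15.5% higher and 14.5% lower, against 6.07% higher and 15.4% lower among the very long genes. The share lower was thus close to that of all genes, and the share higher was below it. By more than 0.5 on the log2 scale, 7 of the 247 were called higher and 20 lower, against 856 and 535 of all 14322 genes tested. At this size lower calls outnumbered higher ones among the very long genes, and the reverse held over all genes. With one library left out, 7 to 14 were higher (7 without IR replicate 2, 8 without untreated replicate 1) and 22 to 48 lower (22 without untreated replicate 2), and 26 of the 53 calls, 7 of genes higher and 19 of genes lower, passed whichever library was left out. The counts were 23 higher and 27 lower with the GC trend of each library removed, and 4 and 19 with an offset for effective transcript length. For that offset the share called over all genes tested is not at hand. A general loss of calls therefore cannot be told from one particular to these genes. The median log2 fold change was -0.10 (quartiles -0.31 and 0.14), against 0.01 over all genes tested, and 156 of the 247 lay below 0. In 95 of the 247 genes (38.5%) the values of all IR libraries lay on one side of all untreated values, against 47.1% of all genes tested. Fewer cells of a kind and less RNA per cell cannot be told apart in these bulk libraries.

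Taken library by library, the shift was not seen in every IR replicate. The median of the genes' log2 values relative to the untreated mean (with 0.5 CPM added) was -0.02, -0.11 and -0.11 in IR replicates 1, 2 and 3, and 0.00, 0.03 and -0.04 in the untreated replicates. IR replicate 1 therefore lay inside the range of the untreated libraries. The share of all counts that fell on the 309 genes was 0.659%, 0.683% and 0.647% in the untreated replicates and 0.626%, 0.576% and 0.556% in the IR replicates, without overlap. Without IR replicate 1 the median log2 fold change was -0.16 and the calls were 13 higher and 48 lower, and without IR replicate 3, the library that stood apart, it was -0.06 with 14 higher and 29 lower.

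Fold changes of all genes in these libraries followed GC content, and very long genes are poor in GC, with a median of 45% in their expressed transcripts against 48.6% over all genes tested. The slope on GC content was 0.12, 0.17 and 0.28 log2 units per 10 percentage points in IR replicates 1, 2 and 3 and between -0.03 and 0.02 in untreated ones. They are also weakly expressed, with a median of 3.06 log2 CPM against 4.77. For a comparison with shorter genes of like GC content and expression, each gene was set against the median of genes of up to 500 kb in the same quintile of GC content and the same quintile of expression, among 13301 shorter genes in all. The median difference was -0.04 (quartiles -0.25 and 0.14), and 141 of the 247 genes (57.1%) lay below their stratum's median. Computed for each IR library, this median difference was 0.01, -0.08 and -0.06, so that it changed sign between libraries. At the rates of their strata, 20.1 genes would be called higher and 30.9 lower, against the 15 and 38 observed. With strata that also hold quintiles of effective transcript length, the median difference was -0.01. The median difference of the class from shorter genes of like GC content and expression was thus no larger than its SD over the IR libraries (0.05, n = 3).

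**Figure D2:**
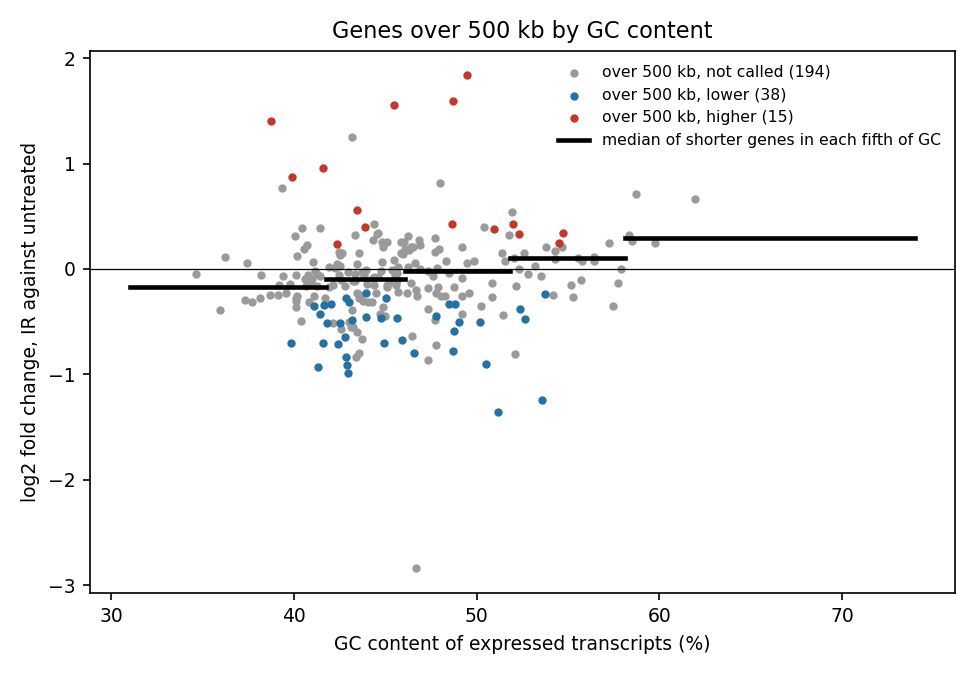
Log2 fold change after IR (y axis) of the 247 tested genes over 500 kb against the GC content of their expressed transcripts (x axis, %), coloured by call, with black lines for the median of shorter genes in each quintile of GC content. The lines rise from -0.17 in the lowest quintile to 0.29 in the highest, and the genes over 500 kb scatter around them, with 5 genes in the highest quintile.

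Within the quintiles of GC content, the medians of the very long genes were -0.13 in each of the 3 lowest quintiles 0.03 in the fourth and 0.33 in the highest, with 50, 95, 64, 33 and 5 genes. Shorter genes of the same quintiles had medians of -0.17, -0.10, -0.02, 0.11 and 0.29. Across the 247 genes, log2 fold change correlated with GC content at a Spearman coefficient of 0.16, against 0.51 across the 13301 shorter genes, where genes share the libraries and are not independent replicates. These coefficients are not like for like. The highest quintile held 2705 shorter genes but 5 very long ones, and median expression was 4.85 against 3.06 log2 CPM. Whether the dependence on GC content differed was not tested.

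The fall with span that shorter genes show stopped before the very long genes. Median log2 fold changes were 0.19 for genes up to 10 kb, 0.09 from 10 to 25 kb, 0.00 from 25 to 50 kb, -0.07 from 50 to 100 kb, -0.13 from 100 to 200 kb and -0.12 from 200 to 500 kb, then -0.10 from 500 kb to 1 Mb and -0.10 over 1 Mb. In genes up to 10 kb the median GC content was 56.5%, and in all classes from 50 kb upwards it lay between 44.9% and 45.5%. Once each library's trend on GC content was taken out, the medians were 0.07, 0.05, 0.03, -0.01, -0.05, -0.04, -0.01 and 0.01 in the same order. Under that correction, 13% of all genes tested were higher and 11.1% lower, beside the 23 and 27 very long genes given above. Among the 247 genes themselves, span had a Spearman coefficient of 0.06 with log2 fold change.

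**Figure D3:**
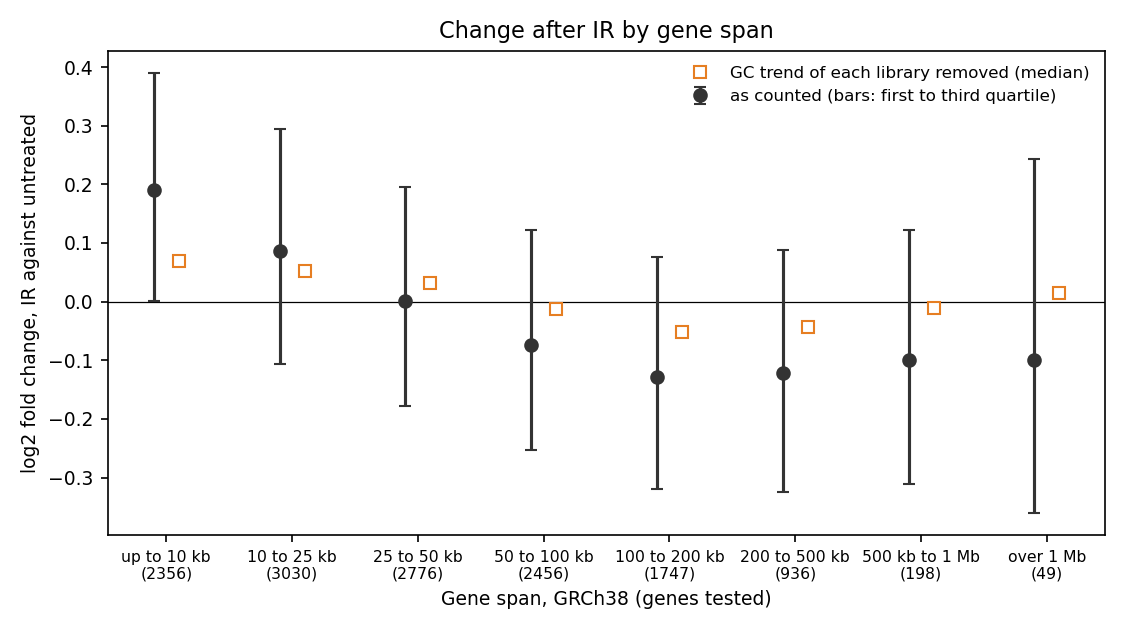
Median log2 fold change after IR (y axis) of autosomal protein-coding genes in 8 classes of gene span (x axis, with the number of genes tested), as counted (filled circles, bars from the first to the third quartile) and with the GC trend of each library removed (open squares). Medians fall from 0.19 to -0.13 up to 100 to 200 kb and stay at -0.10 in both classes over 500 kb, where the squares lie at -0.01 and 0.01.

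Calls were more frequent in the upper 2 quintiles of expression than in the lower ones, as in shorter genes, of which 37.9% and 40% were called in the upper ones. Of the 21 very long genes in the highest quintile of expression, 10 were lower and 0 higher after IR, whereas 654 of 2689 shorter genes in that quintile were lower and 421 higher. In the next quintile 8 of 18 were lower and 2 higher, so that 47.6% were called in the highest quintile and 55.6% in the next. In the lowest quintile, which holds 102 of the 247 genes, 4 were higher and 9 lower, and 12.7% were called against 12.1% of shorter genes. The medians of the very long genes in the highest and the lowest quintile were -0.22 and -0.14, and those of shorter genes were -0.03 and 0.06.

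Genes read mostly as very long transcripts and genes read mostly as shorter ones had like medians. The 137 genes with over 50% of their counts from transcripts above 500 kb had a median log2 fold change of -0.09, with 7 higher and 23 lower, and the 64 genes with under 10% from such transcripts had a median of -0.15, with 3 higher and 7 lower. With the GC trend removed the medians were -0.02 and -0.04. The share of counts on transcripts over 500 kb was higher in all IR than in all untreated libraries in 27 genes and lower in 13, and its median difference was 0. The largest of these falls among the named genes was in ADGRV1, where it went from 64.4%, 66.8% and 65.7% in the untreated replicates to 21%, 4.47% and 24.6% after IR. In LRBA it went from 97.8%, 95.2% and 83.4% to 77.3%, 70.6% and 64.3%, and in SYNE1 from 45.6%, 50.4% and 41% to 29.6%, 21.2% and 17.2%. Rises without overlap included BCAS3, where the share went from 60.2%, 64.7% and 51.4% to 72.4%, 74.8% and 81.1%, and EXOC4, where it went from 79%, 83.4% and 82% to 91.4%, 93.5% and 96.1%. These shares were not tested, because the test of transcript usage recovered few known changes at the spread of these transcript estimates. No count like the 27 and 13 was made over shorter genes, and an exact permutation test of 3 against 3 libraries cannot give a P below 0.1. Those counts therefore do not show how many genes changed their share.

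Among the called genes with at least 100 counts per library on average, the highest fold change was that of SUGCT (ENSG00000175600, chr7:40135005-40860763, plus strand), a mitochondrial enzyme that transfers coenzyme A to glutarate. Its level was 4.56, 4.51 and 3.32 CPM (counts relative to the library size as scaled by TMM) in untreated replicates 1, 2 and 3, and 12.2, 12 and 12.1 CPM after IR. The IR libraries lay within a narrow range and all above the untreated ones, a log2 fold change of 1.55 ± 0.14 (SE, adjusted P = 0.000242) in edgeR. Its leading transcript, described with the sequences, has 2 exons over 67.6 kb and is annotated without a defined coding sequence. Whether transcripts that encode the enzyme rose was not tested. By counts, transcripts over 500 kb held 54.3% of the gene on average in untreated and 33.6% in IR libraries. CSMD3 (ENSG00000164796, chr8:112222928-113436939, minus strand), a large membrane protein with complement-like domains, went from 4.89, 5.40 and 3.76 to 12.4, 13.5 and 11.3 CPM. The groups were again well apart, with a log2 fold change of 1.40 ± 0.15 (SE, adjusted P = 0.00042) in edgeR. Its leading transcript is a retained-intron form of 31.9 kb, and transcripts over 500 kb held 9.28% of its counts on average in untreated and 8.58% in IR libraries.

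TAFA2 (ENSG00000198673, chr12:61708273-62279150, minus strand), a secreted chemokine-like protein, measured 2.80, 3.35 and 3.47 CPM untreated and 4.74, 6.32 and 6.51 CPM after IR. All IR libraries were above the untreated ones, with a log2 fold change of 0.87 ± 0.18 (SE, adjusted P = 0.00667) in edgeR, which an offset for effective length lowered to 0.31 (adjusted P = 0.548). RAD51B (ENSG00000182185, chr14:67819779-68730218, plus strand), which acts in homologous recombination, went from 9.39, 10.6 and 8.55 to 13.4, 14.3 and 14.3 CPM without overlap. Its log2 fold change was 0.56 ± 0.11 (SE, adjusted P = 0.0058) in edgeR, and 0.39 (adjusted P = 0.19) with the length offset. No single transcript dominated this gene, since the leading one held 12.8% of its TPM, and transcripts over 500 kb held 86.1% of its counts before and 91.4% after IR on average.

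The other genes among the 10 highest lay at smaller fold changes. CDH13 (ENSG00000140945, chr16:82626965-83800640, plus strand), a cadherin anchored to the membrane by a lipid, went from 44.1, 41.9 and 40.3 to 53.9, 60.9 and 55 CPM, with 99.3% of its counts on transcripts over 500 kb in both groups. Its log2 fold change was 0.43 ± 0.07 (SE, adjusted P = 0.003) in edgeR, and 0.07 (adjusted P = 0.69) with the length offset. NRG1 (chr8:31639222-32855666, plus strand), a ligand of ERBB receptors, went from 19.6, 23.2 and 21.3 to 28.8, 28.4 and 27.4 CPM, a log2 fold change of 0.40 ± 0.08 (SE, adjusted P = 0.00703) in edgeR. An exon of NRG1 is shared with the gene model ENSG00000286131 on the same strand, between which counts could be split. FARS2, the mitochondrial phenylalanyl-tRNA synthetase, SUMF1, which activates sulfatases, KAZN, a protein of cell junctions, and FRMD4A, a polarity scaffold, had log2 fold changes of 0.42, 0.38, 0.35 and 0.34, with adjusted P values of 0.024, 0.0174, 0.0448 and 0.0182 in edgeR. Each of these 4 calls was lost in several of the fits without one library, FARS2 in all but that without IR replicate 1 (adjusted P up to 0.0733 in edgeR) and KAZN in all but that without untreated replicate 2 (up to 0.128). SUMF1 lost its call without IR replicate 2 or untreated replicate 1 or 2 (up to 0.0746), and FRMD4A without IR replicate 1 or 2 or untreated replicate 1 or 3 (up to 0.0668). Exons of SUMF1 and FRMD4A overlap those of LRRN1 and PRPF18 on the opposite strand, and it is not stated whether strand was used in counting.

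KSR2 (ENSG00000171435, chr12:117453012-117968990, minus strand), a scaffold of the RAF, MEK and ERK kinases, fell most among the called genes with at least 100 counts. It measured 7.85, 8.12 and 5.57 CPM in untreated libraries and 4.41, 1.96 and 2.17 CPM after IR. The untreated and IR ranges did not overlap but came near each other, and the log2 fold change was -1.36 ± 0.29 (SE, adjusted P = 0.00732) in edgeR, and -0.92 (adjusted P = 0.117) with the length offset. Transcripts over 500 kb held 97.2% or more of its counts in every library. CNTNAP2 (ENSG00000174469, chr7:146116002-148420998, plus strand), a neurexin-like adhesion protein of axons and the second longest gene tested, went from 49.6, 48.6 and 53.4 CPM to 29.8, 28.2 and 22 CPM. All IR libraries were far below the untreated ones, with a log2 fold change of -0.93 ± 0.11 (SE, adjusted P = 0.000595) in edgeR, and -0.99 with the length offset. Transcripts over 500 kb held at most 0.488% of its counts in any library, so that this value is for transcripts that cover only part of the gene.

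ADGRV1 (ENSG00000164199, chr5:90529344-91164437, plus strand), a very large adhesion receptor of the inner ear and retina, measured 23, 26.9 and 24.7 CPM untreated and 15.3, 12.6 and 11.9 CPM after IR. Its log2 fold change was -0.91 ± 0.11 (SE, adjusted P = 0.000672) in edgeR, but -0.09 (adjusted P = 0.705) with the offset for effective length, and the shares of its counts on transcripts over 500 kb are given above, their part in this value not being tested. AFF3 (ENSG00000144218, chr2:99545419-100192428, minus strand), a relative of the scaffolds of the super elongation complex, went from 19.2, 19.3 and 18.9 to 10.3, 10.4 and 12.5 CPM, a log2 fold change of -0.78 ± 0.10 (SE, adjusted P = 0.000928) in edgeR. The untreated libraries of AFF3 were nearly equal. LRBA (ENSG00000198589, chr4:150264435-151015727, minus strand), which keeps CTLA4 from degradation in lysosomes, went from 64.5, 65.9 and 60.4 to 44.1, 38.3 and 34.8 CPM, with a log2 fold change of -0.71 ± 0.09 (SE, adjusted P = 0.000818) in edgeR, and -0.21 (adjusted P = 0.395) with the length offset. An exon of MAB21L2 lies on the strand opposite to LRBA, and one of LYSMD3 opposite to ADGRV1.

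PRKCA (ENSG00000154229, chr17:66302613-66810743, plus strand), protein kinase C alpha, was the most abundant of the 20 genes by counts. It measured 351, 349.7 and 313 CPM in untreated libraries and 243, 223 and 209 CPM after IR. The groups did not overlap, and the log2 fold change was -0.59 ± 0.08 (SE, adjusted P = 0.000905) in edgeR, and -0.54 with the length offset, while transcripts over 500 kb held 99.3% of its counts on average in both groups. PRKCA thus is a gene that is read over its whole span of 508 kb and was lower under each of the settings tried. SOX5, a transcription factor of cartilage and neurons, went from 11.8, 11.4 and 11.3 to 7.84, 7.90 and 5.76 CPM, a log2 fold change of -0.70. PSD3, an exchange factor of ARF GTPases, went from 71.7, 73.2 and 72.7 to 52.9, 46.5 and 40.5 CPM (-0.64). VPS13B, a lipid transfer protein of the Golgi, went from 107, 110.3 and 97.6 to 84.1, 71.1 and 65.9 CPM (-0.51). NEBL, an actin-binding protein of the Z-disc, went from 5.27, 5.98 and 7.48 to 3.92, 4.36 and 3.34 CPM (-0.70). For these 4 genes all IR libraries were below all untreated libraries, and the adjusted P values of edgeR were 0.00593, 0.00132, 0.00368 and 0.017. Without untreated replicate 3, that of NEBL was 0.0618.

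**Figure D4:**
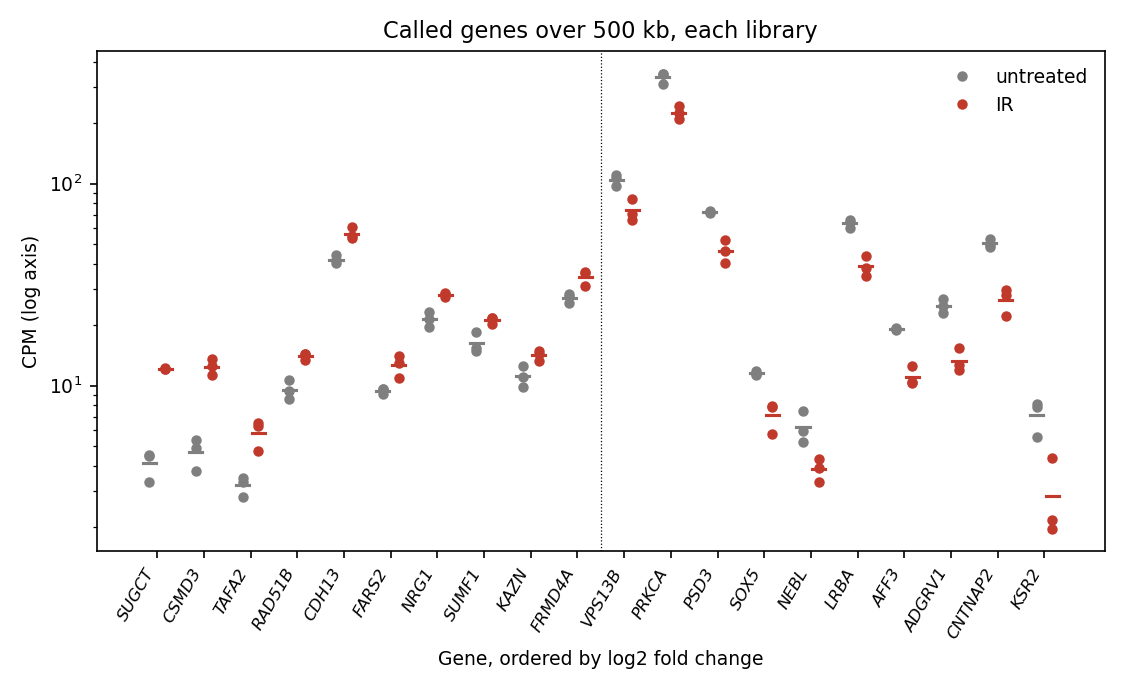
CPM (y axis, log scale) of the 10 highest and 10 lowest called genes over 500 kb with a mean of at least 100 counts, ordered by log2 fold change (x axis), in each of the 3 untreated (grey) and 3 IR (red) libraries, with bars at the group means. The groups do not overlap in any of the 20 genes, and on this log scale the spread within a group is widest in KSR2, at 1.96 to 4.41 CPM after IR.

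Of these 20 genes, 19 kept their call with the GC trend removed (KAZN did not, adjusted P = 0.0797 in edgeR) and 9 kept it with the offset for effective length. The 9 were SUGCT, CSMD3, FARS2 and NRG1 among the higher genes and CNTNAP2, AFF3, SOX5, PSD3 and PRKCA among the lower ones. In 4 of the 10 higher and 4 of the 10 lower genes the leading transcript spanned more than 500 kb. Over all 53 called genes that was so in 27, and 19 kept both call and direction under the GC correction and under the length offset.

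By role, the adhesion and guidance receptors, the largest named group, had the lowest median. Of 49 such genes 42 were tested, and 2 were higher (CDH13 and CSMD3) and 9 lower after IR. The share called was 26.2%, below the 30.1% of all genes tested (15.5% higher and 14.5% lower). Their median log2 fold change was -0.24, against -0.10 over all tested very long genes. The 9 were CNTNAP2, the Slit receptors ROBO1 and ROBO2 (log2 fold changes of -0.47 and -0.99), the netrin receptor UNC5D (-0.83), the teneurins TENM2 and TENM3 (-0.38 and -0.45), their partners, the latrophilins ADGRL2 and ADGRL3 (-0.43 and -0.70), and LRRC4C (-0.28), a ligand of netrin-G. TENM3 measured 262, 285 and 247 CPM untreated and 211, 194 and 177 CPM after IR, and ROBO2, UNC5D and ADGRL3 had means below 100 counts. Against shorter genes of like GC content and expression the median difference of this group was -0.20. With the GC trend removed, 5 of the 42 were higher and 5 lower, with a median of -0.18, so that the balance of calls depended on that correction while the median did so less.

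In each of the other named role groups the share called was also below the 30.1% of all genes tested, at 25.8% for the cytoskeleton group, 23.3% for kinases, 26.9% for transcription, 7.69% for channels, 6.67% for matrix enzymes and 19% for trafficking. Genes of the cytoskeleton, polarity and related signalling were lower in 7 of 31 tested cases (ANK3, ARHGAP24, LPP, MAGI1, NAV2, SHANK2 and UTRN) and higher in 1 (FRMD4A), with a median of -0.12. UTRN, a relative of dystrophin, and LPP, a protein of focal adhesions, had log2 fold changes of -0.45 and -0.33, and SHANK2, a scaffold of synapses, one of -1.24 at a mean of 62.6 counts. The lists are broad, and some genes on them do not have the role in the list's name. The list of kinases, phosphatases and second messengers held 6 lower genes of 30 (INPP4B, KSR2, PRKCA, PTPRG, PTPRK and SYN3) and 1 higher (NRG1, a receptor ligand), with a median of -0.05. That of transcription, chromatin and RNA regulators held 5 lower (AUTS2, FOXP1, NFIA, SOX5 and ZFHX3) and 2 higher (RAD51B and RARB, a retinoic acid receptor) of 26, with a median of -0.15. RAD51B is on it although it acts in homologous recombination. On the list of channels and transmitter receptors 2 of 26 genes were called, both lower, among them ERC1, which is neither a channel nor a receptor. Of the matrix and glycan enzymes 1 of 15 was called (HPSE2, higher, at a mean of 12.7 counts). With the GC trend removed, the higher and lower genes were 2 and 4 for the cytoskeleton group, 2 and 3 for the kinase group, 3 and 5 for the transcription group, and 2 and 2 for the channels.

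The list of trafficking, organelle and ubiquitin genes had the highest median, 0.05, with 2 higher (FHIT and TRAPPC9) and 2 lower (LRBA and VPS13B) of 21 tested. It is broad as well and holds FHIT, a hydrolase of diadenosine compounds. The remaining 56 tested genes, on none of these lists, included 6 higher and 7 lower. One gene model of this remainder, ENSG00000282278, had the lowest fitted log2 fold change, -2.84, but was not called (adjusted P = 0.0855, edgeR), and its counts were 0, 42.5 and 28.2 in the untreated and 11.4, 0 and 1.01 in the IR libraries. In the untreated group 1 library was at 0 and the others were not.

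**Figure D5:**
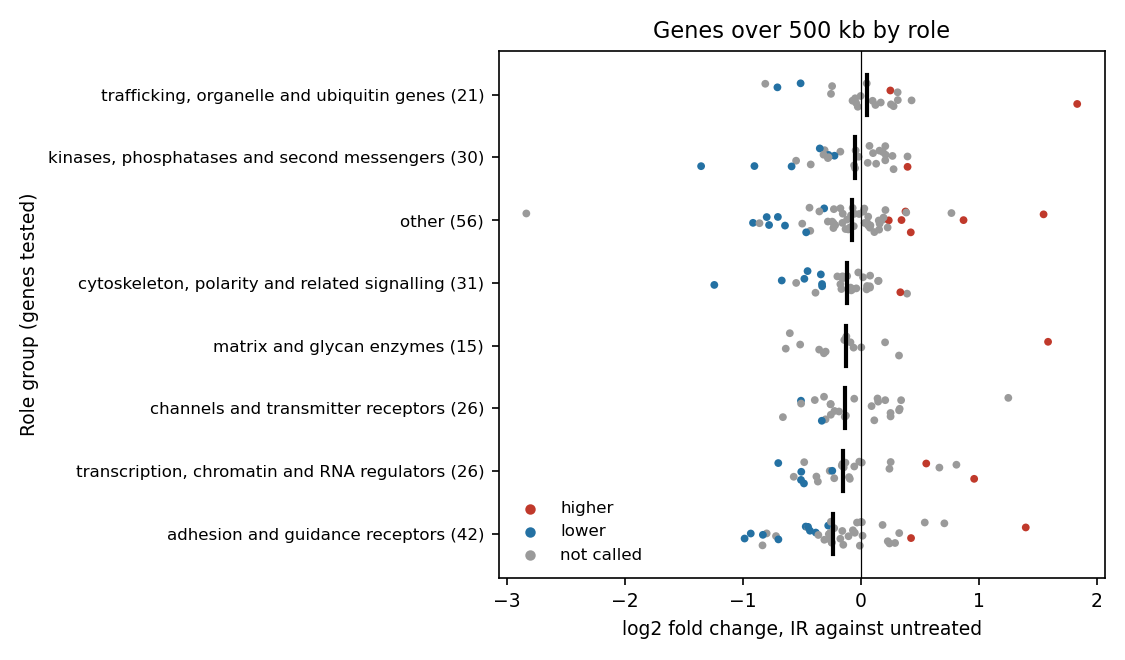
Log2 fold change after IR (x axis) of the 247 tested genes over 500 kb, grouped by role (y axis, with the number tested), coloured by call, with a black bar at each group's median. Medians range from -0.24 in the adhesion and guidance receptors to 0.05 in trafficking, organelle and ubiquitin genes, and points of all groups overlap.

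Genes of common fragile sites gave no common direction. Of 31 such genes 26 were tested, of which 2 were higher (CDH13 and FHIT), 6 lower, among them AUTS2, CNTNAP2, FOXP1, PTPRG and TENM3, and 18 not called. The share called, 30.8%, was near the 30.1% of all genes tested. The list had a median log2 fold change of -0.09 and, against shorter genes of like GC content and expression, of -0.01. FHIT, a hydrolase of diadenosine compounds, spans 1504183 bases (chr3:59747277-61251459, minus strand) and rose from 6, 4.12 and 9 counts in the untreated to 24.5, 23.6 and 43.8 counts in the IR libraries. In CPM these are 0.330, 0.178 and 0.440 and 1.16, 1.31 and 0.974, a log2 fold change of 1.84 ± 0.38 (SE, adjusted P = 0.00625) in edgeR, and 1.33 (adjusted P = 0.0796) with the length offset. The number of counts is small, so that the size of this change is uncertain although the groups did not overlap.

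FOXP1, a forkhead transcription factor, went from 24.9, 24.7 and 19.7 to 18.9, 16.9 and 13.5 CPM (-0.51 on the log2 scale), and it shares an exon with the gene model ENSG00000285708. Its adjusted P in edgeR was 0.073 without untreated replicate 1 and 0.0744 without untreated replicate 2. AUTS2, a regulator of chromatin in neurons, and PTPRG, a receptor phosphatase, had log2 fold changes of -0.24 and -0.27 (adjusted P = 0.0305 and 0.0159, edgeR), both of which lost their call when a library was left out, AUTS2 in all cases but IR replicate 1 (up to 0.139) and PTPRG without IR replicate 2 or untreated replicate 1 or 2 (up to 0.0761). With the GC trend removed PTPRG was at -0.14 (adjusted P = 0.163, edgeR). WWOX, an oxidoreductase, measured 8.13, 11.2 and 8.50 CPM untreated and 11, 10.2 and 10.2 CPM after IR, and IMMP2L, a mitochondrial peptidase, 7.08, 8.34 and 8.26 CPM and 7.07, 8.06 and 8.48 CPM. Both sets overlapped, as did those of EXOC4, BCAS3, DLG2 and RORA, whose log2 fold changes lay between -0.01 and 0.06. The weakly expressed genes CTNNA3, LSAMP, MACROD2, NAALADL2 and PDE4D had at most 2.61 CPM in any library and standard errors of 0.26 to 0.41 on the log2 scale, at which smaller changes were not detectable. CSMD1 ranged from 2.25 to 8.97 CPM in untreated and from 5.18 to 11.8 CPM in IR libraries. It was not called (log2 fold change 0.54, adjusted P = 0.344, edgeR), but it was with the replicate block (0.63, adjusted P = 0.0327, edgeR). For DPYD, MAGI2, SDK1, NBEA and PARD3 the log2 fold changes were -0.09, -0.16, -0.10, -0.24 and 0.02, none of them called.

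The 3 longest genes tested were RBFOX1, CNTNAP2 and DLG2, with spans of 2473539, 2304997 and 2173324 bases. RBFOX1, a splicing factor of neurons and muscle, measured 7.14, 9.10 and 15.4 CPM untreated and 12.2, 11.7 and 13.5 CPM after IR, and its untreated range enclosed the IR range (log2 fold change 0.24, adjusted P = 0.443, edgeR). Without untreated replicate 3, its highest untreated library, it was called higher (log2 fold change 0.62, adjusted P = 0.021, edgeR). At the other end, the genes just inside the limit of 500 kb were ANO5, SPOCK3 and PPFIA2, with log2 fold changes of -0.28, -0.60 and -0.55. None was called (adjusted P = 0.06, 0.149 and 0.155, edgeR). SPOCK3 and PPFIA2 had at most 1.65 CPM in any library and SEs of 0.30 and 0.27. Just outside the limit lay DIAPH3, ITPR2 and CACNA2D1, with -0.31, -0.01 and -0.58. DIAPH3 and CACNA2D1 were called (adjusted P = 0.0317 and 0.000745, edgeR) and ITPR2 was not. With the GC trend removed DIAPH3 lost its call (adjusted P = 0.186, edgeR).

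Genes for the passage of the polymerase through long templates were examined from a list of 55 elongation factors and topoisomerases, of which 54 were tested. In IR libraries 5 were higher (9.26%) and 17 lower (31.5%), where 15.5% of all genes tested were higher and 14.5% lower, and the list's median log2 fold change was -0.14, against 0.01 over all genes tested. This comparison was not matched for expression or GC content, on both of which calls depended. In the highest quintile of expression, 654 of 2689 shorter genes were lower and 421 higher. TOP2A, the topoisomerase of proliferating cells, measured 687, 717 and 779.6 CPM untreated and 546, 484 and 472 CPM after IR, with a log2 fold change of -0.54 ± 0.08 (SE, adjusted P = 0.0013) in edgeR. SETD2, the methyltransferase that marks the bodies of transcribed genes, went from 146, 152 and 139 to 110.1, 103 and 91.1 CPM (-0.53), and CDK12, a kinase of the polymerase's tail that supports transcription to the ends of long genes, from 120.4, 129 and 126 to 101, 96.2 and 81.8 CPM (-0.43). All IR libraries of these 3 genes were below the untreated ones. The 3 highest called genes were RECQL5, a helicase bound to the polymerase, ELOB, the elongin B subunit, and TCEA2, a form of TFIIS, with log2 fold changes of 0.36, 0.33 and 0.32. The libraries of ELOB overlapped between groups, at 79.9, 77.5 and 69.6 CPM and 79, 96 and 110.1 CPM. With the GC trend removed 1 of the 54 genes was higher and 12 lower, where 13% of all genes tested were higher and 11.1% lower. The 3 genes named as higher then lost their call, with TCEA2 at -0.01. With the length offset 3 genes of the list were called in all, and TOP2A, SETD2 and CDK12 were not among them (adjusted P = 0.0701, 0.0959 and 0.0846 in edgeR). The share of all genes called with that offset is not at hand. With one library left out 9 to 23 were called (9, 10 and 11 without untreated replicates 1, 2 and 3, and 13 without IR replicate 2).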

How the data were processed

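RNA from 3 untreated and 3 IR libraries of U-2 OS cells was analysed. The authors trimmed reads with fastp and assigned them with kallisto (version not given in the sources used here) to GENCODE release 37 of GRCh38, and the deposited files give, for each transcript, an estimated count without normalization and a TPM value, which the authors' pipeline scales for effective length and depth. Whether strand was used is not stated.

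Identifiers of transcripts were looked up in GENCODE release 44 (158591 of 161171; the rest held 1.56% to 1.83% of the counts and were left out), and counts were summed per gene and rounded. The span came from release 44. GC content and effective length of a gene are means over its transcripts weighted by TPM. Genes kept by filterByExpr were scaled by TMM and tested with glmQLFit and glmQLFTest of edgeR 4.0.16 (R 4.3.3), without covariates, as the study's generalized linear model, with Benjamini–Hochberg adjustment over all 14322 genes tested and a threshold of 0.05. Standard errors (SE) are the size of the log2 fold change divided by the root of F. Alternatives used DESeq2 1.42.0, other filters, a replicate block, removal of a lowess trend with GC content (span 0.3), an offset for effective length, other span limits, other strata, and each library left out. The class of genes and the gene lists were chosen with earlier results of these data known. The text names the 10 highest and 10 lowest called genes at 100 or more counts on average, the 5 highest TPM, tested fragile-site genes (some genes are not reported here), the 3 longest genes, 3 genes on each side of the span limit, and the 3 highest and 3 lowest called genes of the elongation list. Other genes in the role groups, and ENSG00000282278, were named after their values were seen. The edgeR test recovered known changes in simulated counts. A test of changed transcript usage (diffSpliceDGE) recovered few at the spread of these estimates, so its calls are not reported. No library was a copy of another, since replicates gave a chi-square of at least 3.44 per gene. Promoters are RefSeq windows of GRCh38.p14, with only the first listed kept per gene. Those printed were checked to read the same in the genome sequence used here.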

Additional observations from a re-analysis of the deposited data

How the results depend on the processing

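The 15 genes over 500 kb called higher and 38 called lower became 23 and 27 with the GC trend of each library removed, where the median log2 fold change was -0.0099 in place of -0.10, and 4 and 19 with the effective length offset. Counts also moved with the definition of the class, to 44 higher and 172 lower for spans over 250 kb, 5 and 9 over 1 Mb, and 7 and 20 where the leading transcript itself spans over 500 kb (fewer or more genes in each case). The replicate block alone gave 13 higher and 31 lower. Same-numbered libraries had correlations of deviations of -0.02, 0.01 and -0.05, which gave no sign of pairing. With 3 libraries per group such values cannot exclude it. With the replicate block and the GC trend removed together the median turned to 0.0023. The number of called elongation and topoisomerase genes, 22, became 13 with the GC trend removed, 11 with that and the replicate block, 12 with the replicate block alone and 3 with the effective length offset. For the effective length offset no share over all genes tested is at hand. TCEA2 turned to -0.0082 with the GC trend removed and to -0.0063 with the block added. The cause was not tested. Leaving out each library in turn gave 7 to 14 higher genes (fewest without IR replicate 2, and 8 without untreated replicate 1), 22 to 48 lower genes (fewest without untreated replicate 2), medians of -0.16 (without IR replicate 1) to -0.065, median differences from shorter genes of like GC content and expression of -0.08 to -0.02, and 9 to 23 elongation and topoisomerase genes (9, 10 and 11 without untreated replicates 1, 2 and 3, and 13 without IR replicate 2). Other filters, DESeq2 and its size factors kept all 5 of these values on the same side, within 1.5 times for counts, and the median difference stayed between -0.06 and -0.01 under every other setting. The alternatives for changed transcript usage were not run. Depth limits weakly expressed genes, of which 62 were not tested.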
